A study of Mus musculus with 6 samples.

Results

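The immunoproteasome and peptide loading genes are 10 genes of the route that supplies peptides to major histocompatibility complex (MHC) class I molecules. They were chosen by symbol: Psmb8, Psmb9, Psmb10, Psme1, Psme2, Tap1, Tap2, Tapbp, Erap1 and Nlrc5. They are 10 of the 54146 genes in the count tables, and all 10 were among the 13755 genes with enough reads to test. Their levels were compared in 4T1, an established line of mouse mammary carcinoma cells from the BALB/c strain, by rRNA-depleted stranded RNA-seq. The groups were Ki-67 knockout clone 1 (KO clone 1, genotype Mki67-/-), Ki-67 knockout clone 2 (KO clone 2, genotype Mki67-/-) and wild-type 4T1 cells (WT), with 2 libraries each. No treatment is labelled for any group, and all were grown in the same serum-containing medium. Each knockout group is 1 clone, so the loss of Ki-67 cannot be told apart from differences that a single-cell-derived line carries. Whether both libraries of a group were made from separate cultures is not labelled, and every p-value below therefore reflects library-to-library spread that may be technical.

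The proteasome cuts cytosolic proteins into peptides with 3 pairs of catalytic subunits. Cells exposed to interferon-gamma replace these with Psmb8, Psmb9 and Psmb10, which form the immunoproteasome, and add the PA28 activator built from Psme1 and Psme2. The peptides are carried into the endoplasmic reticulum by the Tap1-Tap2 transporter, trimmed there by the aminopeptidase Erap1, and loaded onto class I molecules with the help of tapasin, the product of Tapbp. Nlrc5 is a transactivator of class I genes and of several genes of this route. In carcinoma cells the route is known as a point at which recognition by cytotoxic T cells can be lost or restored.

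Start regions of 8 members (not of Tap2 and Nlrc5) were taken from the RefSeq promoter table for build GRCm38.p6. Each window covered 250 bases before to 50 bases after the annotated start. All windows were searched on both strands for letters of known promoter elements, of which only some are tied to interferon. The letters GAAANNGAAA, an element bound by interferon regulatory factors, were present in 3.44% of all 32851 windows and in those of Erap1 and Psme1. The letters TTCNNNGAA, the gamma-activated site bound by STAT dimers, were present in 8.30% of windows and in that of Psmb8. The CCAAT box was present in 37.4% of windows and in those of Psmb9, Tap1 and Tapbp. No member's window held the kappaB site, which 8.46% of windows held. The matched stretches of Erap1, Psme1, Psmb8 and the Psmb9-Tap1 pair are shown so that the letters near these starts can be read, with the matched letters in capitals. The CCAAT box was in 3 of the 8 member windows, near its share of all windows, and the gamma-activated site was in 1 of 8. The 2 CCAAT matches of Tapbp, 165 and 248 bases before its RefSeq start, are not printed.
Erap1: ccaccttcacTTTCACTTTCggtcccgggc
Psme1: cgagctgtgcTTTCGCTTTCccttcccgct
Psmb8: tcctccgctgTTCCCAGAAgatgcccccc
Psmb9: gcgcagccgctgATTGGaaagccgagccc
Tap1: gggctcggctttCCAATcagcggctgcgc
The Erap1 stretch lay at chr13:74639839-74639868 on the plus strand, and its element began 4 bases before the start. The Psme1 stretch lay at chr14:55578493-55578522 on the plus strand, and its element began at base 10 of the transcript. The Psmb8 stretch lay at chr17:34198088-34198116 on the plus strand, with its element 97 bases before the start. All starts given with these stretches are RefSeq starts. The GENCODE M21 models of Erap1, Psme1, Psmb8 and Tapbp, used for positions further below, begin upstream of them, so these matches lie inside those models. Psmb9 and Tap1 are read in opposite directions from RefSeq starts with 225 bases between them, so their shared CCAAT box is 1 stretch of DNA read on both strands. It lay at chr17:34187322-34187350, 8 bases before the RefSeq start of Psmb9 on the minus strand and 222 bases before that of Tap1 on the plus strand. The GENCODE M21 models of the pair overlap instead, and the box lies inside that of Psmb9. A match describes the letters in this window and no more.

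The libraries held 22597596 and 22658499 gene reads in KO clone 1, 17103941 and 22275937 in KO clone 2, and 10428970 and 16852152 in WT. At these depths 3 reads corresponded to 0.129 to 0.296 CPM (counts per 1000000 gene reads of the scaled library size). Mki67, the targeted gene, averaged 94.2 ± 11.8 CPM in KO clone 1, 46.3 ± 9.07 CPM in KO clone 2 and 692 ± 63.0 CPM in WT (SD, n = 2 each), so transcripts were reduced but not absent in both clones. Of 8 mammary epithelial markers 7 had reads in every library, and their summed level was 5328 to 5711 CPM in the clones and 3330 to 3774 CPM in WT. In the mean of both clones 4 of the 7 tested were called higher and 0 lower, where 26.5% of all tested genes were higher and 29.3% lower. Among them Krt7, a keratin of simple epithelia, rose most, by 1.12 on the log2 scale. Krt8 (0.13), Krt19 (-0.09) and Cdh1 (-0.06) were not called in that contrast. In KO clone 2 alone, Cdh1 was called lower (-0.35). Of 21 leukocyte markers 9 had no read in any library, among them Cd3e and Cd8a, and Ptprc, which encodes CD45, averaged 0.0445 CPM in KO clone 1, 0.102 CPM in KO clone 2 and 0 in WT. Their summed level was 13.1 to 13.3 CPM in KO clone 1, 25.3 to 29.3 CPM in KO clone 2 and 45.2 to 55.6 CPM in WT. The class II invariant chain gene Cd74 made up 20.7 and 32.5 CPM of the WT sums, against 0.173 to 0.617 CPM in the clones. Of the 3 other leukocyte markers tested, Cd68 fell by 2.21 in the mean of both clones on the log2 scale, while Csf1r rose by 1.16 and Cd14 by 0.42. In the single clones the log2 fold change of Cd14 was -0.32 in KO clone 1 (adjusted p = 0.166, edgeR), where it was not called, and 1.16 in KO clone 2, where it was. Of 11 fibroblast and endothelial markers 4 had no read in any library, and the summed level was 14.76 to 14.97 CPM in the clones against 39.7 to 39.8 CPM in WT, where 39.3 CPM on average came from Pdgfra. The part of such marker genes in the results was not tested. In bulk RNA, fewer cells of a type and less RNA per cell cannot be told apart.

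Most of the 10 genes were lower in the knockout clones, and the extent differed by gene. Of the 10 members 8 fell and none rose in KO clone 1, where 26.0% of all tested genes fell and 24.5% rose (edgeR quasi-likelihood test, adjusted p under 0.05). In KO clone 2, 9 fell and none rose, against 27.9% of all tested genes that fell and 25.2% that rose. The 2 comparisons use the same WT libraries. The median log2 fold change of the members was -1.29 in KO clone 1 and -0.90 in KO clone 2, against -0.01 and -0.02 over all tested genes. For 9 members, every clone library lay below both WT libraries, a pattern shown by 30.1% of all tested genes. The exception was Psmb10, whose libraries overlapped between the groups. Against a threshold of 1.5-fold, 6 members fell in KO clone 1 (11.3% of all tested genes) and 5 in KO clone 2 (13.0%). These were Psmb8, Psmb9, Psme1, Tap1 and Tap2 in each clone, with Psme2 in KO clone 1.

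**Figure D1:**
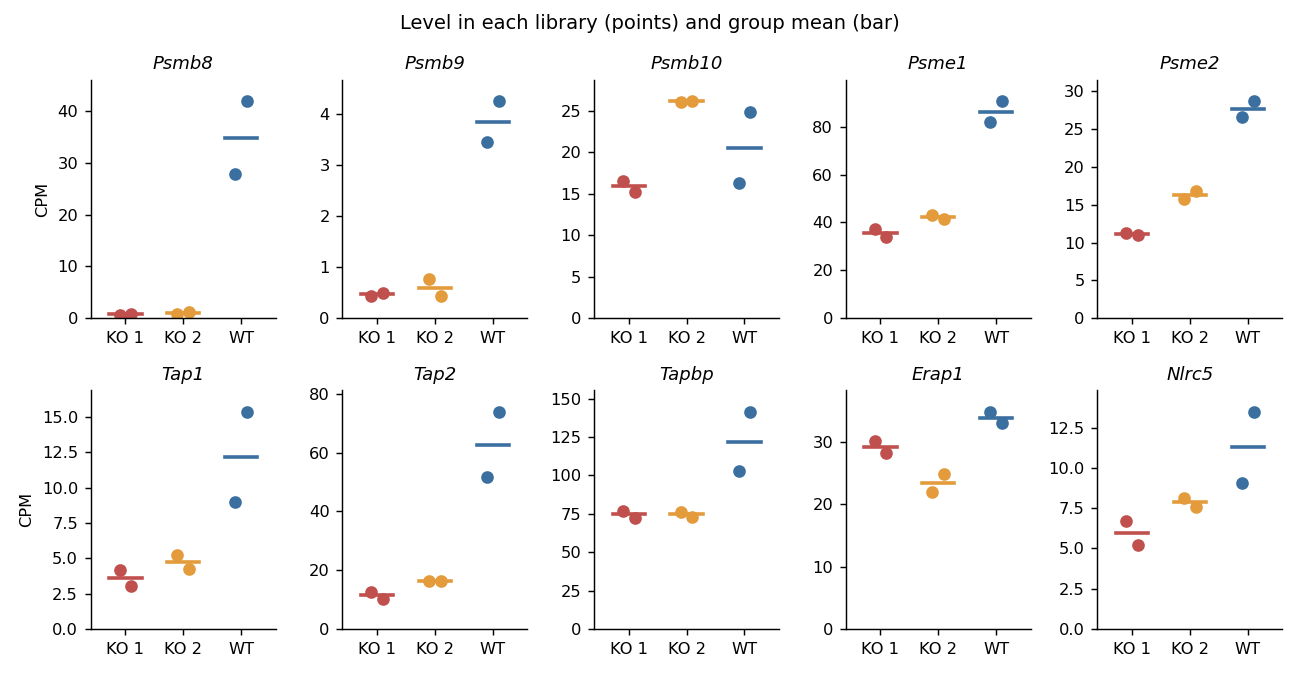
Level of each of the 10 genes in CPM (linear axis from 0) in KO clone 1, KO clone 2 and WT; points are the 2 libraries of a group and bars their mean. The clone points of Psmb8 sit at 0.661 to 1.12 CPM below WT points at 27.8 and 41.9 CPM, whereas the points of Psmb10 overlap between the groups.

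The 3 catalytic subunits of the immunoproteasome differed from one another. Psmb8, the chymotrypsin-like subunit also called LMP7, had 0.661 and 0.899 CPM in KO clone 1 and 0.824 and 1.12 CPM in KO clone 2, against 27.8 and 41.9 CPM in WT. These levels rest on 15, 20, 14 and 26 reads in the clone libraries and on 282 and 709 reads in WT. All clone libraries were far below both WT libraries, and the clones overlapped each other. The log2 fold change was -5.48 ± 0.26 in KO clone 1 (SE, adjusted p = 4.36e-09) and -5.14 ± 0.26 in KO clone 2 (adjusted p = 6.11e-09), which is 44.6-fold and 35.1-fold lower. In the mean of both clones, Psmb8 ranked 206 from the lowest among the 13755 genes tested.

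Psmb9, also called LMP2, the subunit that replaces the caspase-like one, was low in every group. It had 0.441 and 0.495 CPM in KO clone 1 and 0.766 and 0.432 CPM in KO clone 2, against 3.45 and 4.25 CPM in WT. The clone values rest on 10 to 13 reads a library and the WT values on 35 and 72 reads. The clone libraries again lay below both WT libraries, and Psmb9 fell by 3.04 ± 0.33 in KO clone 1 (adjusted p = 6.19e-06) and by 2.74 ± 0.33 in KO clone 2 (adjusted p = 1.27e-05) on the log2 scale.

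Psmb10, also called MECL-1, the subunit that replaces the trypsin-like one, did not follow the other 2. It had 16.6 and 15.2 CPM in KO clone 1 and 26.1 and 26.2 CPM in KO clone 2, against 16.3 and 24.9 CPM in WT. KO clone 2 lay above both WT libraries and KO clone 1 overlapped them. Its log2 fold change was -0.38 ± 0.17 in KO clone 1 (adjusted p = 0.0833) and 0.33 ± 0.17 in KO clone 2 (adjusted p = 0.119), so neither passed the test. The WT libraries set these values: without WT replicate 1 the log2 fold change in KO clone 1 was -0.64 (adjusted p = 0.00183), and without WT replicate 2 that in KO clone 2 was 0.68 (adjusted p = 0.00225).

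Per kilobase of exon, with all annotated exons of a gene merged, Psmb10 was the highest and Psmb9 the lowest of the 3 subunits. This held in each group, but the distances differed. The merged length is 3381 bases for Psmb8 and 1705 for Psmb10. In CPM without length, Psmb8 was above Psmb10 in WT (34.8 against 20.6), so their order in WT depends on these lengths. In KO clone 1 the mean levels were 9.33 CPM per kb for Psmb10, 0.231 for Psmb8 and 0.128 for Psmb9. In KO clone 2 they were 15.3, 0.288 and 0.164 CPM per kb in the same order. In WT they were 12.1 ± 3.56 CPM per kb for Psmb10, 10.3 ± 2.94 for Psmb8 and 1.05 ± 0.15 for Psmb9 (SD, n = 2). In WT, Psmb10 and Psmb8 were thus within their spread between libraries. Within each WT library Psmb10 was the higher of the 2 per kb (9.54 against 8.23 and 14.6 against 12.4). In both clones Psmb10 stood well above the other pair.

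Set against the standard subunit that each replaces, the same separation was present. The ratio of Psmb8 to Psmb5 per kb was 0.0182 and 0.0241 in KO clone 1 and 0.0110 and 0.0123 in KO clone 2, against 0.600 and 0.606 in WT. The ratio of Psmb9 to Psmb6 was 0.00175 and 0.00194 in KO clone 1 and 0.00191 and 0.00126 in KO clone 2, against 0.0104 and 0.0126 in WT. In both pairs all clone libraries were below both WT libraries. The ratio of Psmb10 to Psmb7 was 0.246 and 0.196 in KO clone 1 and 0.273 and 0.308 in KO clone 2, against 0.218 and 0.418 in WT, and these groups overlapped. With unstranded counts the Psmb10 ratio was higher, at 0.435 and 0.335 in KO clone 1 and 0.437 and 0.523 in KO clone 2, against 0.368 and 0.681 in WT, and the groups again overlapped. The Psmb8 ratio was then 0.00784 to 0.0180 in the clones, against 0.428 and 0.410 in WT, still without overlap. From raw counts without length, the Psmb8 ratio was 0.0414 to 0.0905 in the clones, against 2.26 and 2.28 in WT. Whether Psmb8 exceeds Psmb5 in WT thus depends on the lengths used. The standard subunits themselves were not called in the mean of both clones (0 of 3 in either direction, with 29.3% of all tested genes lower and 26.5% higher). Their log2 fold changes in that contrast were -0.07 for Psmb5, -0.13 for Psmb6 and 0.27 for Psmb7. In the single clones Psmb5 fell by 0.66 in KO clone 1 and rose by 0.51 in KO clone 2, Psmb6 fell by 0.40 in KO clone 1 and Psmb7 rose by 0.43 in KO clone 2. The level of Psmb5 was 9.79 CPM in KO clone 1, 22.1 CPM in KO clone 2 and 15.3 CPM in WT, against 130 to 190 CPM for Psmb6. Reads that mapped to several places (24.7% to 29.3% of a library) are not in the gene counts, so the level of a gene with near-identical copies elsewhere is uncertain. Whether this lowers the count of Psmb5, and so raises the ratio of Psmb8 to Psmb5, was not tested.

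**Figure D2:**
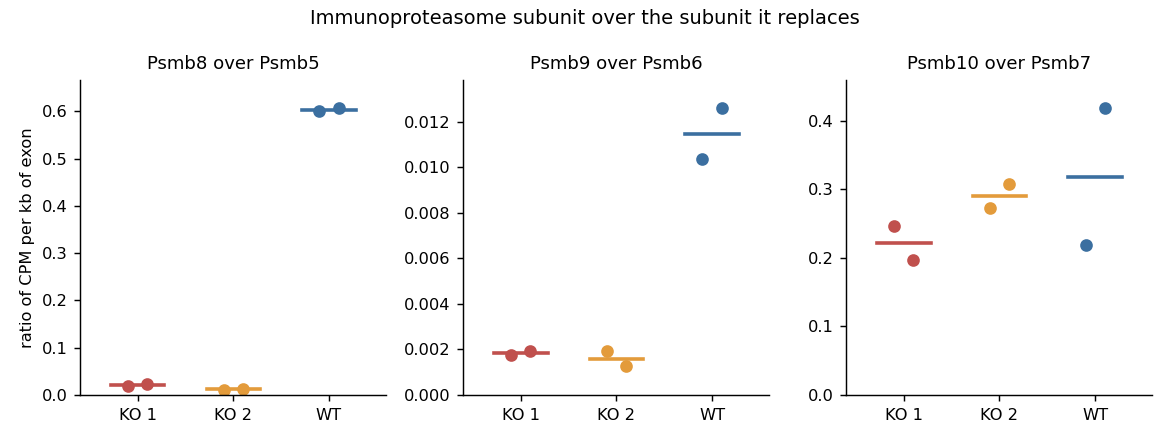
Ratio of each immunoproteasome subunit to the standard subunit it replaces, from CPM per kb of exon (linear axis from 0), in KO clone 1, KO clone 2 and WT; points are libraries and bars group means. For Psmb8 over Psmb5 the clone points lie at 0.0110 to 0.0241 and the WT points at 0.600 and 0.606, and for Psmb10 over Psmb7 the groups overlap.

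Both subunits of the PA28 activator, which opens the proteasome core and widens the set of peptides released, fell in each clone. Psme1 (PA28 alpha) had 37.5 and 33.8 CPM in KO clone 1 and 42.9 and 41.3 CPM in KO clone 2, against 82.0 and 90.6 CPM in WT. Psme2 (PA28 beta) had 11.24 and 11.01 CPM in KO clone 1 and 15.8 and 16.8 CPM in KO clone 2, against 26.6 and 28.6 CPM in WT. The groups did not overlap for either gene, and the 2 WT libraries were close. Psme1 fell by 1.28 ± 0.12 in KO clone 1 (adjusted p = 1.70e-06) and by 1.04 ± 0.12 in KO clone 2 (adjusted p = 9.44e-06) on the log2 scale. Psme2 fell by 1.31 ± 0.14 in KO clone 1 (adjusted p = 3.98e-06) and by 0.76 ± 0.13 in KO clone 2 (adjusted p = 0.00033). The complex holds both subunits in near-equal numbers. Per kb, Psme1 exceeded Psme2 in every group, with means of 16.1 and 6.31 CPM per kb in KO clone 1, 19.1 and 9.23 in KO clone 2, and 39.1 and 15.7 in WT.

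Both subunits of the peptide transporter fell as well. Tap1 had 4.14 and 3.01 CPM in KO clone 1 and 5.24 and 4.27 CPM in KO clone 2, against 8.97 and 15.4 CPM in WT. Tap2 had 12.6 and 10.2 CPM in KO clone 1 and 16.1 and 16.1 CPM in KO clone 2, against 51.6 and 73.8 CPM in WT. All clone libraries were below both WT libraries for each gene, but the 2 WT libraries were far apart. Tap1 fell by 1.79 ± 0.25 in KO clone 1 (adjusted p = 7.17e-05) and by 1.38 ± 0.25 in KO clone 2 (adjusted p = 0.000437) on the log2 scale. Tap2 fell by 2.46 ± 0.18 in KO clone 1 (adjusted p = 1.54e-07) and by 1.96 ± 0.17 in KO clone 2 (adjusted p = 8.33e-07), 5.52-fold and 3.89-fold lower. The transporter is built from 1 copy of each protein. Per kb, Tap1 was the lower of the pair throughout, at 0.653 against 3.01 CPM per kb in KO clone 1, 0.869 against 4.27 in KO clone 2 and 2.22 against 16.6 in WT.

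Tapbp, whose product tapasin bridges the transporter and empty class I molecules, changed less. It had 76.7 and 72.4 CPM in KO clone 1 and 76.3 and 72.9 CPM in KO clone 2, against 103 and 141 CPM in WT. The 4 clone libraries were close together and below both WT libraries, which differed from each other. Tapbp fell by 0.71 ± 0.14 in each clone on the log2 scale (adjusted p = 0.000955 in KO clone 1 and 0.000885 in KO clone 2). It was the member with the highest level per kb in both clones, at 20.6 CPM per kb in each, followed by Psme1. In WT the order per kb was the reverse, with 39.1 ± 2.76 CPM per kb for Psme1 and 33.6 ± 7.52 for Tapbp (SD, n = 2). The difference was within their spread, though Psme1 was the higher in each WT library (37.1 against 28.3 and 41.0 against 38.9). In CPM without length, Tapbp was above Psme1 in WT too (122 against 86.3).

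Erap1, which trims peptides to the length that class I molecules bind, showed the smallest decrease among the 9 members that fell in the mean of both clones (-0.37). It had 30.1 and 28.3 CPM in KO clone 1 and 21.96 and 24.82 CPM in KO clone 2, against 34.8 and 33.0 CPM in WT. All clone libraries lay below WT, and KO clone 2 lay below KO clone 1. The log2 fold change was -0.21 ± 0.13 in KO clone 1, which did not pass the test (adjusted p = 0.175), and Erap1 fell by 0.53 ± 0.13 in KO clone 2 (adjusted p = 0.00314).

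Nlrc5, the transactivator, had 6.70 and 5.21 CPM in KO clone 1 and 8.13 and 7.60 CPM in KO clone 2, against 9.07 and 13.5 CPM in WT. The groups did not overlap, but KO clone 2 reached close to WT replicate 1. Nlrc5 fell by 0.94 ± 0.21 in KO clone 1 (adjusted p = 0.00195) and by 0.54 ± 0.20 in KO clone 2 (adjusted p = 0.0385) on the log2 scale. The call in KO clone 2 rested on WT replicate 2: without it the log2 fold change was -0.21 (adjusted p = 0.433). It was also not called with DESeq2 (adjusted p = 0.0852), without the filter on low counts (0.0879), or without either KO clone 2 library (0.127 and 0.180).

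**Figure D3:**
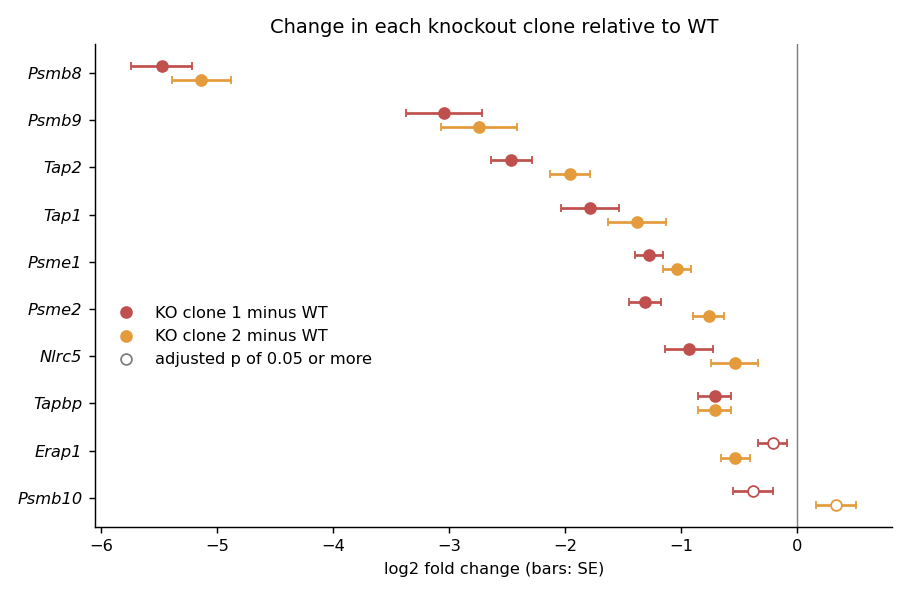
Log2 fold change of each gene in KO clone 1 and KO clone 2 relative to WT, with bars for the standard error; filled points passed an adjusted p of 0.05 and open points did not. Psmb8 lies lowest at -5.48 and -5.14, and Psmb10 has open points on either side of 0.

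In WT replicate 2, 9 of the 10 members were higher than in WT replicate 1, all but Erap1, with a median log2 difference of 0.48, whereas 51.1% of all tested genes were higher and their median was 0.01. Within KO clone 1, 2 of the 10 members were higher in replicate 2 (49.8% of all tested genes), and within KO clone 2, 5 were (48.1%). Without WT replicate 2, the log2 fold change of Tapbp in the mean of both clones was -0.46 and was still called, and that of Nlrc5 was -0.41 and was not (adjusted p = 0.103). In KO clone 1 alone, Nlrc5 was then at -0.61 (adjusted p = 0.0353).

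The clones were also compared with each other. Of the members 2 were higher in KO clone 2 and none was lower, where 11.3% of all tested genes were higher and 10.7% lower. Psmb10 was 0.72 ± 0.17 higher in KO clone 2 than in KO clone 1 on the log2 scale (adjusted p = 0.0107), and Psme2 was 0.55 ± 0.13 higher (adjusted p = 0.012). Tap2 was 0.50 ± 0.17 higher and did not pass the test (adjusted p = 0.0523), though it did under 8 of the alternatives (adjusted p = 0.00497 to 0.0476), with 0.89 once each chromosome's median was removed. The median over the members was 0.37, against 0.00 over all tested genes. Leaving out single libraries moved these calls. Psmb10 was not called without KO clone 1 replicate 2 or either KO clone 2 library (adjusted p = 0.0865 to 0.121), and Psme2 was not called without any 1 of the 4 clone libraries (0.07 to 0.126).

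By position, 5 of the members lie in the MHC region of chromosome 17 (GENCODE M21 models, GRCm38). Psmb9 (chr17:34181987-34187764, minus strand), Tap1 (chr17:34187553-34197225, plus strand), Psmb8 (chr17:34197721-34201454, plus strand) and Tap2 (chr17:34203527-34216321, plus strand) are consecutive tested genes. Tapbp lies nearby at chr17:33915899-33929292 on the plus strand. Psme1 (chr14:55578123-55581529, plus strand) and Psme2 (chr14:55587441-55591113, minus strand) are neighbours on chromosome 14. Psmb10 (chr8:105935735-105938444, minus strand) and Nlrc5 (chr8:94434356-94527272, plus strand) lie apart on chromosome 8, and Erap1 lies at chr13:74639568-74693201 on the plus strand. Some gene models overlap others on the opposite strand, such as Psmb9 and Tap1, and the counts used are strand-specific. Opposite-strand reads were 0 to 3 a library for Psmb8 and 0 to 8 for Psmb9. Tapbp overlaps Zbtb22 on the same strand, where reads cannot be told apart.

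The decrease of the chromosome 17 members was not shared by most tested genes near them. Of the 13 other tested genes within 250 kb of Psmb9, Tap1, Psmb8 and Tap2, 6 rose and 2 fell in KO clone 1, and 6 rose and 2 fell in KO clone 2. Over all tested genes, 24.5% rose and 26.0% fell in KO clone 1, and 25.2% rose and 27.9% fell in KO clone 2. All 13 neighbours lie on the Psmb9 side of the cluster, and no other tested gene starts within 250 kb beyond Tap2. Their median log2 fold change was 0.57 in KO clone 1 and 0.21 in KO clone 2. The nearest, Brd2, a bromodomain protein of acetylated chromatin, rose by 0.81 and 0.39. It starts at -64.9 kb from the start of Tap1, and H2-DMa is almost as near, at -68.0 kb. The 2 that fell, named here after their values were seen, were H2-DMa, which edits peptides on class II molecules (-1.62 and -1.58), and Col11a2, a collagen gene (-2.40 and -2.95). Near Tapbp, Zbtb22 rose by 0.64 in KO clone 1 and 0.34 in KO clone 2, and Daxx rose by 0.39 in KO clone 1 (0.28 in KO clone 2, adjusted p = 0.0804). The median log2 fold change over all tested genes of chromosome 17 was 0.55 in KO clone 1 and 0.17 in KO clone 2. With each chromosome's median removed, the log2 fold changes were -6.03 and -5.30 for Psmb8, -3.02 and -2.13 for Tap2, and -1.26 and -0.88 for Tapbp in KO clone 1 and KO clone 2.

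**Figure D4:**
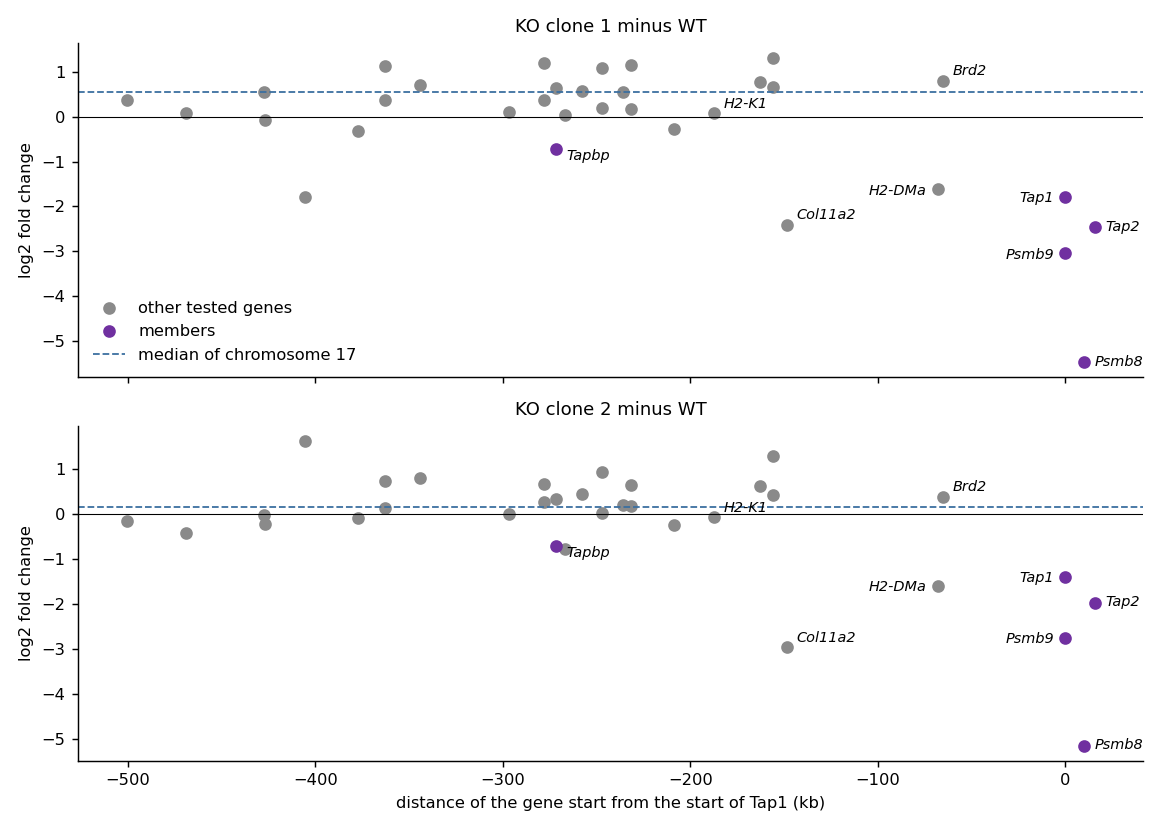
Log2 fold change of tested genes around the chromosome 17 members, against the distance of each gene's start from that of Tap1 in kb, for KO clone 1 (top) and KO clone 2 (bottom); the dashed line is the median of chromosome 17. Psmb9, Tap1, Psmb8 and Tap2 lie below 0 in both clones, while the nearest other gene, Brd2, lies above it at 0.81 and 0.39. The next nearest, H2-DMa, lies below 0 at -1.62 and -1.58.

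On the other chromosomes the neighbours varied. The shares over all tested genes were again 26.0% lower and 24.5% higher in KO clone 1, and 27.9% lower and 25.2% higher in KO clone 2. Many of these regions hold few genes. Around Psme1 and Psme2, of 17 other tested genes 6 fell and 2 rose in KO clone 1, and 3 fell and 9 rose in KO clone 2. Emc9, which lies between the pair and overlaps the end of Psme1 on the opposite strand, fell by 2.09 and 1.66, and Dcaf11 on the other side of Psme1 fell by 0.96 and 0.41. Rnf31, a ubiquitin ligase subunit next to Psme2, rose by 0.91 in KO clone 2 (0.21 in KO clone 1, adjusted p = 0.207). Around Psmb10, none of 20 genes fell, while 10 rose in KO clone 1 and 16 in KO clone 2. Of its nearest neighbours, Slc12a4 rose by 0.88 in KO clone 2 (0.02 in KO clone 1), and Pskh1 was not called, with -0.08 and 0.09. With the median of chromosome 8 removed, the log2 fold change of Psmb10 was -0.67 in KO clone 1 (adjusted p = 0.00697) and -0.06 in KO clone 2. Around Nlrc5, none of 8 genes fell, and Herpud1, a gene of the endoplasmic reticulum stress response, rose by 0.81 and 1.38. On its other side Cpne2 rose by 0.54 in KO clone 2 (-0.10 in KO clone 1). Around Erap1, of 6 genes 1 fell in KO clone 1 and 4 fell in KO clone 2. Its nearest neighbours were Cast (0.15 and -0.04, not called) and Gm46430, which fell by 0.63 in KO clone 2 (-0.10 in KO clone 1).

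The rest of the route was described through lists of related genes in the mean of both clones against WT. In that contrast 9 of the 10 members fell and none rose, where 29.3% of all tested genes fell and 26.5% rose. Of 11 other subunits of the 20S core 5 fell and 1 rose (median log2 fold change -0.23). The lowest was Psma5 (-0.55) and the one that rose was Psma7 (0.46). Of 8 other activators, inhibitors and assembly factors 2 fell and 5 rose, with a median of 0.29. Psmf1, an inhibitor of the proteasome, rose by 0.93 and Pomp, the maturation protein of the core, fell by 0.46. Psmf1 had 51.9 and 50.2 CPM in KO clone 1 and 58.4 and 49.9 CPM in KO clone 2, against 29.0 and 26.3 CPM in WT.

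Of 13 loading partners and class I chains 7 fell and 1 rose (median -0.37). The 7 were Tapbpl, Canx, H2-Q4, H2-Q7, H2-T22, H2-T23 and H2-M3. H2-K1, H2-D1 and B2m, named here after their values were seen, were not called and had far higher levels than H2-Q7. Their log2 fold changes were 0.009 for H2-K1, 0.003 for H2-D1 and -0.47 for B2m (adjusted p = 0.953, 0.979 and 0.255, edgeR). B2m had 323 and 362 CPM in KO clone 1 and 489 and 304 CPM in KO clone 2, against 640 and 378 CPM in WT. With this spread, a decrease of B2m can be neither seen nor excluded. In H2-K1 and H2-D1 the counts showed no decrease. The effect of strain differences on the mapping of these genes was not tested. H2-Q7, a non-classical class I gene, fell by 2.12 at levels of a few reads, with 0.133 ± 0.0019 CPM in KO clone 1, 0.226 ± 0.014 CPM in KO clone 2 and 0.778 ± 0.015 CPM in WT (SD, n = 2 each). It has near-identical relatives in the same cluster, so its counts are uncertain. Pdia3, the disulfide isomerase of the loading complex, rose by 0.28. Of 8 other peptidases 3 fell and 2 rose, with a median of 0.00. Npepps, a cytosolic aminopeptidase, fell by 0.82, and Prep, a prolyl peptidase, rose by 0.36.

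Among the proteins that Nlrc5 works with at class I promoters, 8 of 9 were tested, 1 fell and 3 rose (median 0.13). Rfx5, the DNA-binding subunit of the RFX complex, had 21.02 and 18.25 CPM in KO clone 1 and 13.8 and 15.3 CPM in KO clone 2, against 35.8 and 40.1 CPM in WT. It fell by 1.17 in the mean of both clones, with no overlap between the clones and WT. Nfyc, a subunit of the factor that binds CCAAT boxes, rose by 0.77. Ciita, the class II transactivator related to Nlrc5, had too few reads to test.

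Of 16 interferon receptors, JAK kinases, STAT and IRF factors and the inhibitor Socs1, 10 fell and 1 rose (median -0.46). Irf1, a factor known to drive Psmb8, Psmb9 and Tap1 after interferon-gamma, had 40.8 and 36.4 CPM in KO clone 1 and 40.6 and 38.9 CPM in KO clone 2, against 88.9 and 101.2 CPM in WT. Both WT libraries were far above all clone libraries, and the clones were close to each other. Irf1 fell by 1.28 ± 0.10 on the log2 scale. Irf7 fell most, by 2.27, on few reads: 15 and 9 in KO clone 1, 7 and 14 in KO clone 2, and 23 and 47 in WT. Irf8 rose by 2.09, with 11.3 and 12.4 CPM in KO clone 1 and 17.78 and 15.02 CPM in KO clone 2, against 2.56 and 3.78 CPM in WT. Of 5 NF-kB subunits 4 rose and none fell, where 26.5% of all tested genes rose and 29.3% fell. Their median was 0.65, and Nfkb2 rose by 1.03.

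**Figure D5:**
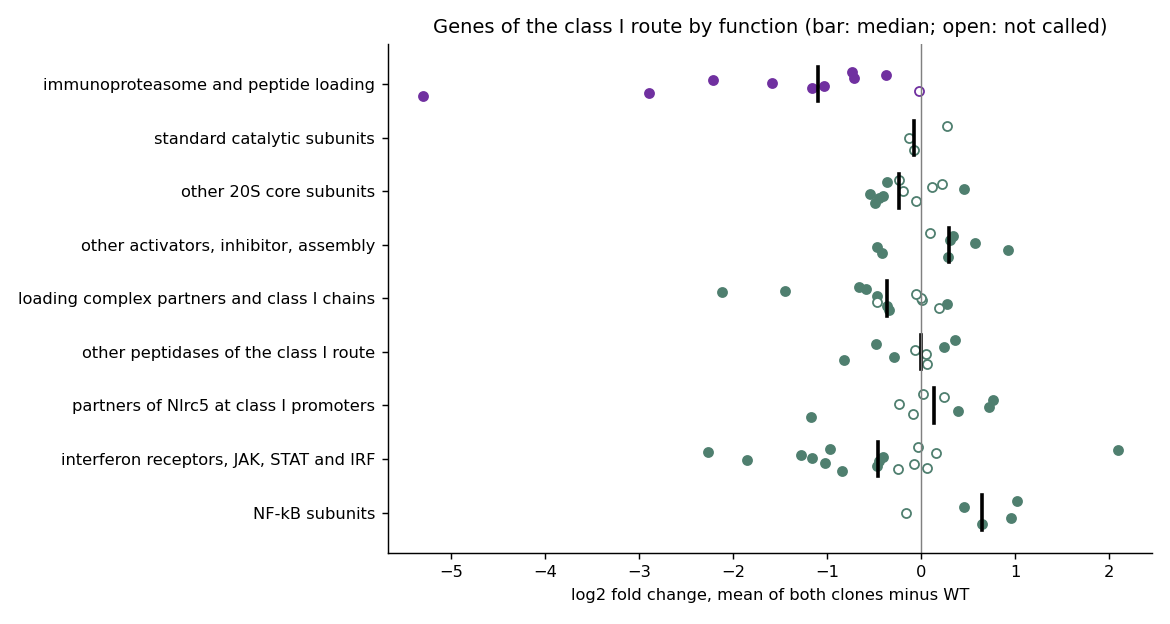
Log2 fold change in the mean of both clones relative to WT for the 10 genes (top row) and for related genes by function; each point is a gene, open points were not called and black bars are medians. The 10 genes have a median of -1.10, the interferon pathway -0.46 and the NF-kB subunits 0.65.

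The genes whose levels over the 6 libraries were nearest to the median profile of the members, measured as Euclidean distance between log2 CPM relative to the WT mean, were Zfp324 (0.145), Neil1 (0.176), Cln6 (0.208), Shroom3 (0.210) and Syngr1 (0.230). The median profile itself was -1.24 and -1.33 in KO clone 1, -0.90 and -0.89 in KO clone 2, and -0.24 and 0.24 in WT.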

How the data were processed

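RNA from 6 libraries of 4T1 cells was measured. Per the labels' protocols, Trizol-extracted RNA was depleted of rRNA and made into TruSeq Stranded Total RNA libraries. Per the submitters' processing notes, FastQC and STAR 2.6.0c were used with build GRCm38. The deposited values are unnormalized counts of reads per gene, in unstranded, forward and reverse columns; the authors' reverse counts, which held 92.3% to 95.7% of stranded gene reads, were used here. Rows that name no gene (46.9% to 56.8% of reads) were left out. The line is BALB/c and the reference C57BL/6J, and the effect of strain differences in the MHC region on mapping was not tested.

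Symbols and exon lengths came from GENCODE M21, which matched 54079 of 54146 IDs. The exon length of a gene is that of all its annotated exons merged. Genes were filtered with filterByExpr, which kept 13755 of the 26172 with a read, and CPM used TMM-scaled library sizes. All 6 libraries entered 1 quasi-likelihood fit, with a term for each group, in edgeR 4.0.16 and limma 3.58.1 in R 4.3.3, with 3 residual degrees of freedom and a biological coefficient of variation of 10.3%. P-values were adjusted over all tested genes by Benjamini-Hochberg. The script was tested on simulated data. Within each group the libraries were further apart than counting noise allows (chi-square over degrees of freedom of 19.6 to 86.9), so none was treated as a copy.

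The members and all lists were chosen with earlier results of these data known. Named genes were all members, the called genes with the largest increase and decrease of each list, every gene of lists of up to 3, Irf1, the nearest tested neighbours, and the 5 nearest profiles; 1 gene that the rule names is not reported here. Alternatives were other scalings (DESeq2 1.42.0 size factors, upper quartile), other tests (DESeq2, limma-voom, a legacy quasi-likelihood fit, a 1.5-fold threshold), other filters, unstranded counts, a replicate block, fits to only the groups compared, removal of chromosome medians, and leaving out each library. The subunit ratios were also taken from unstranded counts and from raw counts without length. Promoter windows and the starts given with them are from RefSeq, GRCm38.p6.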

Additional observations from a re-analysis of the deposited data

Results flagged for a closer look

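The difference from WT in 2 genes was not the same in both clones, by the test of clone 2 against clone 1 itself. The part of Ki-67 loss in this cannot be told apart from other differences between the 2 clonal lines. Psmb10 was higher in KO clone 2 than in KO clone 1 by 0.72 on the log2 scale, with 26.2 ± 0.0095 CPM in KO clone 2 and 15.9 ± 0.941 CPM in KO clone 1 (SD, n = 2 each). Psme2 was higher by 0.55, with 16.3 ± 0.714 CPM in KO clone 2 and 11.1 ± 0.159 CPM in KO clone 1. The standard subunits Psmb5 and Psmb6 were also higher in KO clone 2 than in KO clone 1, by 1.17 and 0.55, and Rnf31, which lies next to Psme2, by 0.71. With each chromosome's median removed, the difference in Psme2 was 0.22 and was not called (adjusted p = 0.270).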

How the results depend on the processing

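Of the values of single members under the alternatives, 656 kept their direction and side of the threshold, 27 lost their call, 15 gained one and 12 changed sign. All sign changes were in differences that were not called. Psmb10 in KO clone 2 against WT was -0.058 with chromosome medians removed; in the mean of both clones it was 0.038 without the filter on low counts and -0.285 to 0.326 when single libraries were left out. Between the clones, Psme1 was -0.091 with chromosome medians removed, Psmb9 was -0.112 to 0.693 and Tapbp -0.041 to 0.039 when single libraries were left out. Tapbp was also -0.031 with upper-quartile scaling, -0.011 without the filter, -0.014 with the 1 CPM filter and -0.0032 with only the groups compared. Erap1 in the mean of both clones was not called without the filter (adjusted p = 0.0587) or without KO clone 1 replicate 2 (0.0514).

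Testing for more than 1.5-fold, 5 members fell in KO clone 2 against WT and 0 were higher in KO clone 2 than in KO clone 1. Over all genes that test called 1561 lower and 1123 higher in KO clone 1, 1782 and 1250 in KO clone 2, 1692 and 1178 in the mean of both, and 162 and 182 between the clones. Leaving out single libraries gave 0 to 1 members higher in KO clone 2 against WT (Psmb10, without WT replicate 2), and 0 to 3 higher and 0 to 1 lower between the clones, with 239 to 2094 genes lower and 276 to 2317 higher. With only the clones in the fit, 1 member was lower in KO clone 2. The causes were not tested.

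Deviations of same-numbered libraries correlated only weakly between groups, by -0.16, 0.08 and 0.005 over 13755 genes. This does not settle whether same-numbered libraries were handled together, which the labels do not say. With the replicate block, 8 members fell in KO clone 1 (24.6% of all tested genes) and 9 in KO clone 2 (27.0%). Depth limits Psmb8 and Psmb9 in the clones, where each library held 10 to 26 reads.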
